A study of Mus musculus with 11 samples.

Results

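The genes of the Polycomb repressive complexes were examined in the developing brain of 11 mouse embryos, each taken on day 9.5 of gestation. The 10 genes, taken by symbol, were Ezh1, Ezh2, Eed, Suz12 and Jarid2 of Polycomb repressive complex 2 (PRC2) and Ring1, Rnf2, Pcgf1, Pcgf3 and Pcgf5 of Polycomb repressive complex 1 (PRC1). All 10 were found among the 27179 genes of the count files, and all 10 passed the filter on low counts. The embryos, on a C57BL/6 background, carried mutant alleles of p53 (the tumour suppressor gene Trp53) and Bim (the cell death gene Bcl2l11). Affected females (4 embryos) and control males (4) were p53-/- Bim+/-. Control females (3) were p53+/+ Bim+/-, so that all groups lacked 1 allele of Bim and no group was wild type. What made a female count as affected is not stated. The loss of p53 is present in the whole embryo, and litter is not given. Each sample was brain down to a level caudal to the otic vesicle, from which polyadenylated RNA was sequenced to between 8211942 and 11218682 counts per library. Of 9 neural progenitor markers, none was at 0 in any library. Hes5 was the lowest of them, at 1.99 to 7.32 CPM, while Sox2 was between 99.3 and 169 CPM (counts relative to the library total, scaled by TMM factors). Levels below are in CPM, differences are log2 fold changes with their standard error (SE) from edgeR's quasi-likelihood test, and a gene was called at a Benjamini-Hochberg adjusted p under 0.05 over 14542 tested genes. Since the tissue was measured in bulk, fewer cells of a type and less RNA per cell cannot be told apart.

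Polycomb complexes keep developmental genes silent in cells where they are not needed. PRC2 methylates a lysine in the tail of histone H3 through Ezh2 or its paralogue Ezh1, which need the core subunits Eed and Suz12, while Jarid2 helps to direct the complex to its sites. PRC1 attaches ubiquitin to histone H2A through Rnf2 (also called Ring1B) or Ring1, each paired with 1 of several PCGF proteins that set the type of complex. Complexes with Pcgf3 or Pcgf5 are known for their part in the start of X inactivation, and those with Pcgf1 for binding to unmethylated CpG islands. In the neural tube, PRC2 with Ezh2 is known to hold back genes of later or more posterior fates.

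The 10 genes lie on autosomes. Ezh1 (chromosome 11, 101191115 to 101226463 in GRCm38) and Suz12 (79993106 to 80034123) are on the chromosome that also holds Trp53. Ring1 is at 34020792 to 34024680 on chromosome 17, Rnf2 at 151469398 to 151500991 on chromosome 1, Pcgf1 at 83077552 to 83080855 on chromosome 6 and Ezh2 at 47530274 to 47595270 on the same chromosome. No other counted gene overlaps any of the 10. The 250 bases before the start of the paralogues Ring1 and Rnf2, and of Ezh1 and Ezh2, are shown because the levels within these pairs are compared below. They are from RefSeq's GRCm38.p6 table, 5′ to 3′ on the strand of the gene: chr17:34024681-34024930 (minus strand) for Ring1, chr1:151500992-151501241 (minus) for Rnf2, chr11:101226464-101226713 (minus) for Ezh1 and chr6:47595031-47595280 (minus) for Ezh2. Capitals mark matches, on either strand, to the GC box GGGCGG or to CCAAT.
Ring1: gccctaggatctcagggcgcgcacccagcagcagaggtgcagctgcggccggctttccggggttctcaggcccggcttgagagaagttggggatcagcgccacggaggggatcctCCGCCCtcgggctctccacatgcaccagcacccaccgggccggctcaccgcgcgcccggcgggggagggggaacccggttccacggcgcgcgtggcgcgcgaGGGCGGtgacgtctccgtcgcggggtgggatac
Rnf2: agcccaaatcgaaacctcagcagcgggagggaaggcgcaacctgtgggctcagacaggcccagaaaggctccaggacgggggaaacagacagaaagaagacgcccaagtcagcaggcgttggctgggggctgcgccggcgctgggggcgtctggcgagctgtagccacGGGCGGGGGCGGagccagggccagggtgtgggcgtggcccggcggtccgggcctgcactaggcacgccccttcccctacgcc
Ezh1: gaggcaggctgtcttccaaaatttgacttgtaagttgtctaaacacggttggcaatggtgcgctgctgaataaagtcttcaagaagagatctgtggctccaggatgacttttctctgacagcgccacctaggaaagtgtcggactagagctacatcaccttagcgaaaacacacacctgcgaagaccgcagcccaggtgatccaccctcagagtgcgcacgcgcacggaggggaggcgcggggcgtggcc
Ezh2: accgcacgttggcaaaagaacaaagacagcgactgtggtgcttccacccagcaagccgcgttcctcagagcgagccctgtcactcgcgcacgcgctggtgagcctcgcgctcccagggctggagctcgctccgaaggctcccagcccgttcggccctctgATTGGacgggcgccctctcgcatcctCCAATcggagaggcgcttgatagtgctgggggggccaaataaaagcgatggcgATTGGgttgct
The GC box occurred at 2 places each in the windows of Ring1 and Rnf2, and in 32.7% of 32851 windows of the same length. In Rnf2 both places follow each other without a gap. CCAAT occurred at 3 places in the window of Ezh2, and in 33.8% of all windows. The window of Ezh1 held neither. The letters TTTNGCGC and CCGGAAGT, which are core forms of the E2F and ETS motifs, were in 1.13% and 2.88% of all windows and in none of the 4 shown. Ring1 had 30 CG pairs in its window, Ezh2 23, Rnf2 20 and Ezh1 14, against a median of 6. Windows were matched for 9 of the 10 genes, all but Pcgf1.

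Per kb of gene length, Ezh2 was the most abundant of the 10 genes, at 146 ± 10.4 CPM per kb (SD, n = 11 embryos). Rnf2 followed with 72.3 ± 6.07, Eed with 54.0 ± 3.92, Suz12 with 44.3 ± 1.79, Pcgf3 with 30.6 ± 2.02 and Jarid2 with 23.6 ± 1.61 CPM per kb. Each of these 6 genes was above the next in all 11 embryos, and their ranges do not overlap. The other 4 were low: Ring1 at 11.1 ± 4.39, Pcgf1 at 6.81 ± 2.21, Pcgf5 at 5.68 ± 0.926 and Ezh1 at 5.39 ± 0.789 CPM per kb. Their order is not separated, since the ranges of neighbours overlap and Pcgf1 exceeded Pcgf5 in only 6 of 11 embryos. The genes also differed in how much they varied over the embryos. The highest embryo was 1.13 times the lowest for Suz12 and 1.30 times for Rnf2, but 2.65 times for Ring1 and 2.36 times for Pcgf1.

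**Figure D1:**
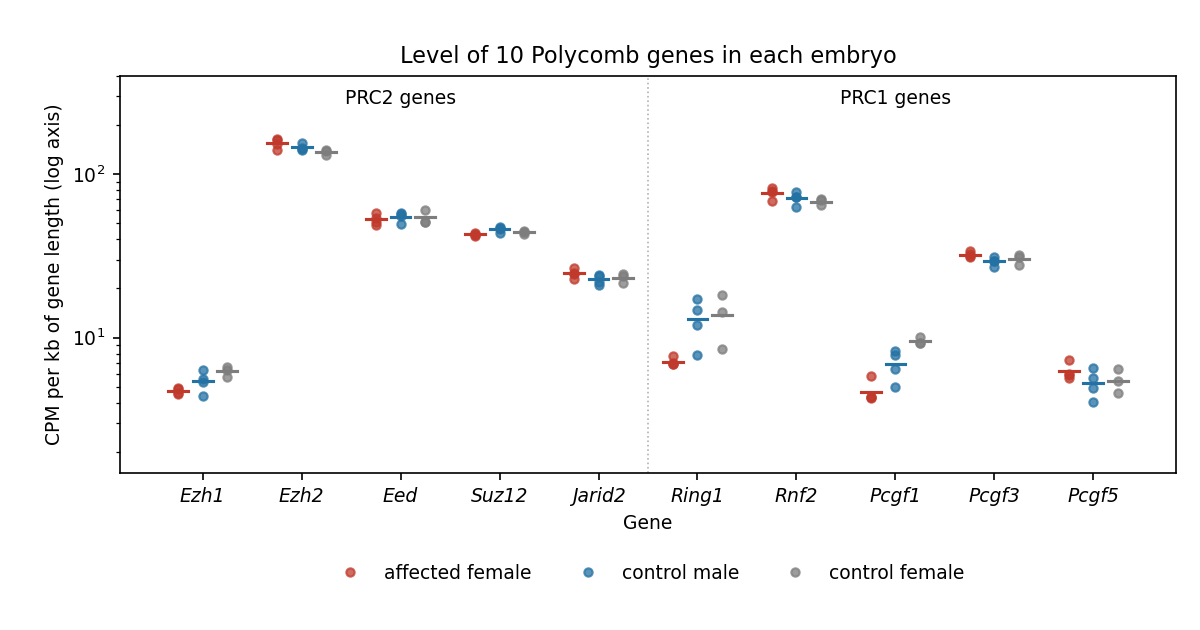
CPM per kb of gene length (log axis) of the 10 genes in each of 11 embryos, with points for embryos, bars for group means and colours for the 3 groups. Ezh2 lies highest, from 131 to 163 CPM per kb, and Ring1 and Pcgf1 spread the most, with all 4 affected females below all 3 control females for both.

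Affected females were first compared with control females, which differ from them in p53 genotype and in being affected. Ring1, Pcgf1 and Ezh1 were lower in affected females, and none of the 10 genes was called higher. The main forms of the catalytic subunits (Ezh2, Rnf2), the PRC2 core (Eed, Suz12), Jarid2, Pcgf3 and Pcgf5 were not called. The 3 calls of 10 stand beside 28.0% of all tested genes called in either direction, and the share is near that background. All 3 were lower, which is above the 15.0% of all tested genes called lower. A share of 10 genes is coarse, and this difference was not tested. The median log2 fold change of the 10 genes was 0.02, against -0.01 for all tested genes.

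Among the PRC2 genes, Ezh1, the less active of the methyltransferases, was at 20.4, 18.9, 19.4 and 20.7 CPM in affected females 1 to 4 and at 27.7, 26.6 and 24.01 CPM in control females 1 to 3. All affected females lay below all control females, by -0.39 on the log2 scale (SE 0.12, edgeR's adjusted p = 0.0282). This call was lost without affected female 2 or 3, or without control female 1, 2 or 3 (adjusted p = 0.0504 to 0.0889, edgeR). Ezh2, the main methyltransferase of dividing progenitors, was at 375, 407, 432 and 435 CPM in affected females and at 373, 349.9 and 368 CPM in control females. These ranges do not overlap either, which was so for 40.2% of all tested genes, but the difference of 0.18 was not called (SE 0.09, 95% interval -0.005 to 0.37, adjusted p = 0.127, edgeR). Under limma voom with sample weights Ezh2 was called higher (0.21, adjusted p = 0.0103). Suz12, which holds the complex together, was at 186, 188, 191 and 184 CPM against 189, 193 and 197 CPM, a difference of -0.05 with an interval of -0.20 to 0.11. Eed, which binds the methylated lysine, differed by -0.04 (interval -0.23 to 0.16) and Jarid2 by 0.09 (interval -0.09 to 0.27). For Eed, Suz12 and Jarid2 the affected and control females overlapped.

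Among the PRC1 genes, Ring1 was at 14.1, 15.6, 14.3 and 14.1 CPM in affected females and at 17.4, 37.2 and 29.1 CPM in control females. Affected females were close to each other, while control female 1 lay nearer to them than to the other control females. On the log2 scale the difference was -0.95 (SE 0.24, edgeR's adjusted p = 0.0120), a 1.93-fold lower level. It was not called without control female 2 (-0.69, adjusted p = 0.0762). Rnf2, the more abundant of the paired ubiquitin ligases, was at 206, 248, 239 and 235 CPM in affected females and at 212, 196 and 209 CPM in control females. These overlap, and the difference of 0.17 was not called (interval -0.02 to 0.37, adjusted p = 0.166, edgeR). It was called after removal of GC content and length trends (0.25, adjusted p = 0.0396) and with limma voom and sample weights (0.20, adjusted p = 0.0196). Pcgf1, the PCGF subunit of the complex with the CpG-binding protein Kdm2b, was at 5.08, 3.80, 3.73 and 3.78 CPM in affected females and at 8.10, 8.80 and 8.07 CPM in control females. The groups lay well apart, by -1.02 on the log2 scale (SE 0.20, edgeR's adjusted p = 0.00400), or 2.03-fold. The gene is short, and the values rest on 37 to 87 counts per library. Pcgf3 was at 122, 116, 126 and 118 CPM against 104, 120.2 and 116 CPM, with a difference of 0.09 (interval -0.09 to 0.26). Pcgf5, its closest relative, was at 8.58 to 10.99 CPM against 6.89 to 9.72 CPM, with a difference of 0.19 and a wider interval of -0.20 to 0.57. Neither was called.

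**Figure D2:**
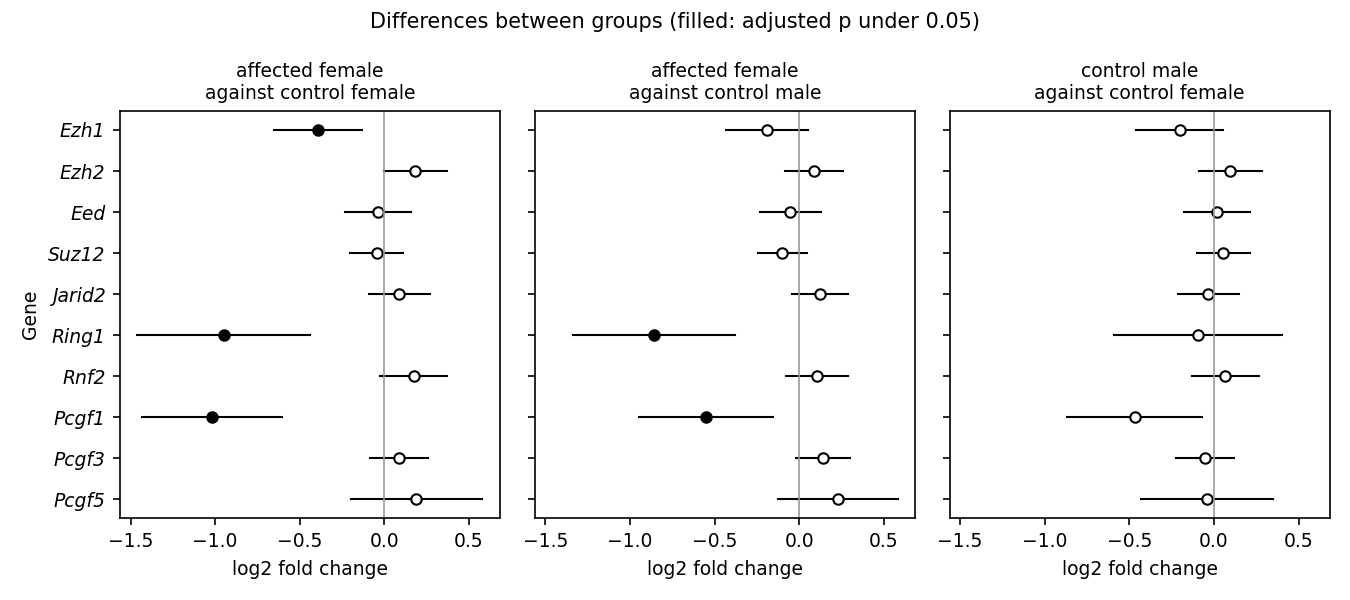
Log2 fold change (points) and 95% interval (lines) of the 10 genes in the 3 comparisons, with filled points for an adjusted p under 0.05. Ring1 and Pcgf1 lie to the left of 0 in both comparisons of affected females, and the intervals of the other PRC2 and PRC1 genes are narrow except for Pcgf5.

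The second comparison set affected females against control males. Both groups were p53-/- Bim+/-, so by their labels they differ in sex and in being affected. Whether they also differ in litter or batch is not given. Ring1 and Pcgf1 were again lower, and none of the 10 was called higher. The 2 calls of 10 stand beside 20.2% of all tested genes called in either direction and 10.7% called lower. The affected females are the same 4 embryos as above, so the comparisons are not independent. Ring1 was at 30.0, 34.9, 24.5 and 16.0 CPM in control males 1 to 4. Control male 4 lay close to the affected females, whose highest value was 15.6 CPM, yet the groups do not overlap. Ring1 was the only member of which this was so, beside 19.5% of all tested genes (10.1% higher and 9.43% lower). The difference was -0.86 on the log2 scale (SE 0.23, edgeR's adjusted p = 0.0205). The call was lost when affected female 3 or 4, or control male 1 or 2, was left out (adjusted p = 0.0528 to 0.0719). Pcgf1 was at 6.86, 7.24, 5.62 and 4.36 CPM in control males, and control male 4 fell within the range of the affected females. Its difference of -0.55 (SE 0.19, edgeR's adjusted p = 0.0479) was just past the threshold. It was not called with DESeq2 (adjusted p = 0.0508), with only these groups in the fit (0.0608), with no filter on low counts (0.0582), after removal of GC content and length trends (-0.40, adjusted p = 0.125), or without any 1 of affected females 2, 3 and 4 and control males 1, 2 and 3 (0.0764 to 0.139).

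Ezh1 was at 22.6, 26.5, 23.4 and 18.4 CPM in control males, with control male 4 below all affected females, and the difference of -0.19 was not called (interval -0.43 to 0.05, adjusted p = 0.231, edgeR). It was called without control male 4 (-0.28, adjusted p = 0.0466) and with limma voom and sample weights (-0.21, adjusted p = 0.0463). The other 7 genes lay between -0.10 for Suz12 and 0.23 for Pcgf5, overlapped between the groups and were not called. For Ezh2 the interval was -0.09 to 0.26, for Rnf2 -0.08 to 0.29 and for Pcgf3 -0.02 to 0.30. With limma voom and sample weights Jarid2 (0.17, adjusted p = 0.0260) and Pcgf3 (0.15, adjusted p = 0.0390) were called higher.

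Control males and control females, which differ in sex and p53 genotype, were compared last. None of the 10 genes was called by edgeR, and 1 of them, Pcgf1, had an unadjusted p under 0.05. DESeq2 called none, and limma voom with sample weights called Pcgf1 lower in control males (-0.55, adjusted p = 0.0184). The background was also low, with 0.144% of all tested genes called by edgeR (0.0481% higher and 0.0963% lower). That is 21 genes, and over the alternative settings the number ran from 19 to 1569. Pcgf1 lay lower in all 4 control males than in all 3 control females, by -0.47 on the log2 scale (SE 0.19, edgeR's adjusted p = 0.773). Ring1 differed by -0.09 with a wide interval of -0.59 to 0.40, since both groups hold embryos with high and with low values. Ezh2 differed by 0.10 (interval -0.09 to 0.28), and all 4 control males lay above all 3 control females. Ranges without overlap in either direction were found for 5.54% of all tested genes (2.99% higher and 2.54% lower).

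Control female 1 and control male 4 stand apart from the other controls in Ring1, and the mitochondrial share of the libraries moves with it. Counts of 15 mitochondrially encoded genes made up 1.31% to 1.69% of the libraries of affected females. They made up 2.06% in control male 4 and 2.48% in control female 1, but 2.82% to 4.99% in the other 5 control libraries. Marker lists are given by group, and not all of them follow Ring1. The markers of early neurons, 14 of 14 tested, summed to 153 to 205 CPM in affected females, 276 to 455 CPM in control males and 188 to 421 CPM in control females. Control female 1 was the lowest of the controls at 188 CPM, while control male 4, at 279.99 CPM, was close to control males 1 and 3. Those of surface ectoderm, 9 of 9 tested, summed to 300.5 to 339 CPM in affected females, 173 to 242 CPM in control males and 153 to 274 CPM in control females. Here control male 4 (242 CPM) and control female 1 (274 CPM) were the highest of their groups and so nearest the affected females. Those of head mesenchyme and neural crest, 10 of 10 tested, summed to 453 to 561, 383 to 469 and 373 to 414 CPM, with control female 1 the lowest of all libraries. Neural progenitor markers, 9 of 9 tested, summed to 969.6 to 1236, 1024 to 1313 and 1025 to 1364 CPM. Against control females Sox2 (0.39) and Sox3 (0.72) were called higher and Fabp7 (-1.68) and Vim (-0.40) lower, and against control males only Fabp7 was called (-1.32). With 1 embryo left out, Sox2 lost its call against control females in 4 of 7 fits, Sox3 in 3 and Vim in 5. Fabp7 kept its call in all 7, and in all 8 against control males. Replication and G1/S genes, which like Ezh2 are E2F targets, summed to 3459 to 3999 CPM in affected females, 2759 to 3633 CPM in control males and 2894 to 3184 CPM in control females. Control male 4 (3633 CPM) and control female 1 (3184 CPM) were again the highest of their groups. Erythroid markers summed to 1117 to 2305, 2131 to 3691 and 557 to 4379 CPM, and endothelial markers to 231 to 291, 220.1 to 279.8 and 261 to 266 CPM. For erythroid markers control female 1 was the lowest of all libraries at 557 CPM, while control females 2 and 3 were at 4379 and 4172 CPM. Against control females and control males, 11 and 11 of 14 early neuron markers were called lower, 9 and 7 of 9 surface ectoderm markers higher, 5 and 3 of 10 mesenchyme and crest markers higher, and 9 and 6 of 14 replication genes higher with 1 and 1 lower. Over all tested genes, 28.0% were called in either direction against control females and 20.2% against control males. Those called lower made up 15.0% and 10.7% of all tested genes. None of 8 erythroid markers was called in either comparison, and 1 of 7 endothelial markers was lower against control females. No marker of these lists was at 0 in any library. The part of these features in the values of Ring1, Pcgf1 and Ezh1 was not tested. Control female 1 and control male 4 have the lowest Ring1 of their groups, so a fit without them, chosen after seeing the data, has a larger difference by construction: Ring1 then stood at -1.18 against control females and -1.03 against control males. Pcgf1 stood at -1.03 and -0.68. Ezh1 moved closer to 0 against control females, to -0.34 from -0.39. Against control males it went to -0.28 from -0.19 and was then called (adjusted p = 0.0385, edgeR).

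**Figure D3:**
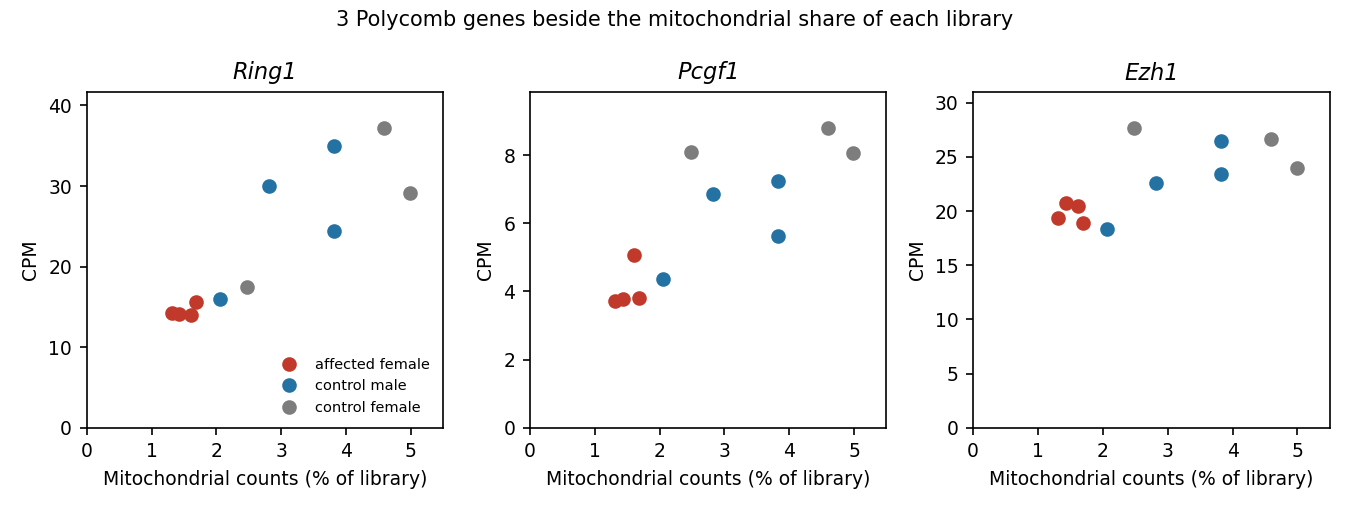
CPM of Ring1, Pcgf1 and Ezh1 (vertical axes, from 0) against the percentage of each library's counts from mitochondrially encoded genes, with 1 point per embryo coloured by group. For Ring1 the 4 affected females, control male 4 and control female 1 lie at 14.1 to 17.4 CPM and at most 2.48%, and the other 5 controls at 24.5 to 37.2 CPM and at least 2.82%. Pcgf1 and Ezh1 do not share this split. Control female 1 has the highest Ezh1 of all libraries (27.7 CPM), and its Pcgf1 (8.10 CPM) is level with control female 3 (8.07 CPM). Control male 4 is low in both, at 18.4 CPM for Ezh1 and 4.36 CPM for Pcgf1.

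The ratio of paralogues within a library does not depend on how libraries are scaled. Per length, Rnf2 exceeded Ring1 by 9.82 to 11.2 times in affected females, 3.66 to 9.84 times in control males and 3.54 to 8.14 times in control females. The log2 ratio of Ring1 to Rnf2 was -3.42 ± 0.09 (SD, n = 4) in affected females, -2.51 ± 0.60 (n = 4) in control males and -2.37 ± 0.61 (n = 3) in control females. Affected females lay below all control females, with a difference of -1.05 (exact two-sided permutation, p = 0.0286, which no split of 35 can undercut; adjusted p = 0.0858 in a family of 6, for 2 ratios). Against control males the difference was -0.91 (exact permutation test, p = 0.0571, adjusted p = 0.114), and control male 4 fell within the range of the affected females. Ezh2 exceeded Ezh1 per length by 28.8 to 35.0 times in affected females, 22.3 to 35.4 times in control males and 20.6 to 24.1 times in control females. The log2 ratio of Ezh1 to Ezh2 was -5.02 ± 0.12 in affected females against -4.45 ± 0.12 in control females, a difference of -0.57 (exact permutation test, p = 0.0286, adjusted p = 0.0858) with no overlap. Against control males, at -4.76 ± 0.28, the difference was -0.26 (exact permutation test, p = 0.143, adjusted p = 0.172). None of the 6 passed the threshold after adjustment. With groups of this size no p could be below 0.0286, which passes only if most of the 6 reach it. The adjusted values therefore cannot show that the ratios were alike.

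The other subunits of the complexes went both ways. Of 40 listed genes 39 were tested, and in affected against control females 7 were higher and 8 lower, or 38.5% beside 28.0% of all tested genes. Among the other PRC2 genes 2 of 9 rose and 2 fell, with a median of -0.03. Epop, which links PRC2 to elongin, was at 39.8, 37.3, 41.3 and 40.6 CPM in affected females and at 21.1, 21.4 and 20.1 CPM in control females (0.93, SE 0.16, adjusted p = 0.00290, edgeR). Its groups were tight and far apart. Phf1, which encodes a Polycomb-like protein, moved the other way, at 6.08, 3.49, 3.91 and 5.23 CPM against 9.60, 11.6 and 10.2 CPM (-1.16, SE 0.26, adjusted p = 0.00680). Lcorl stood at -0.74 (SE 0.14) and the X-linked histone chaperone gene Rbbp7 at 0.39 (SE 0.11). Rbbp7 was not called without affected female 3, control female 2 or control female 3 (adjusted p = 0.0686 to 0.103).

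Among the other PRC1 genes 5 of 30 tested rose and 6 fell, with a median of 0.08. Phc3, a polyhomeotic subunit that joins complexes to each other, was at 40.2, 41.6, 40.1 and 43.9 CPM in affected females and at 88.0, 68.3 and 61.6 CPM in control females (-0.81, SE 0.14, adjusted p = 0.00302, edgeR). The X-linked corepressor gene Bcorl1, a partner of Pcgf1 complexes, was at 38.9, 41.2, 43.2 and 44.4 CPM against 29.0, 25.3 and 21.8 CPM (0.73, SE 0.13, adjusted p = 0.00350). Fbrs stood at -0.51 (SE 0.13) and Rybp, a subunit of variant PRC1, at 0.37 (SE 0.12). Fbrs was not called without control female 2 (adjusted p = 0.0558), nor Rybp without affected female 3 or 4 or control female 2 or 3 (adjusted p = 0.0607 to 0.105). The number called moved with single embryos: of the 39 genes, leaving out affected female 3 gave 6 calls, affected female 4 gave 8, control female 2 gave 5 and control female 3 gave 6. Calls over all tested genes moved too, from 1663 to 4579 with 1 embryo left out, beside 4073 with all embryos.

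Against control males 6 of the 39 genes were higher and 4 lower in affected females, or 25.6% beside 20.2% of all tested genes. Bcorl1 was at 23.6, 21.9, 27.2 and 32.5 CPM in control males, all below the affected females (0.67, SE 0.12, adjusted p = 0.00825, edgeR). Phf1 was at 10.6, 11.1, 7.99 and 4.82 CPM (-0.88, SE 0.24, adjusted p = 0.0238) and Epop at 24.7, 20.7, 32.6 and 37.7 CPM (0.46, SE 0.14, adjusted p = 0.0367), and for both control male 4 fell within the range of the affected females. Lcorl stood at -0.40 (SE 0.13), and Dcaf7, L3mbtl2 and Usp7, which belong to different variant PRC1 complexes, at 0.35 (SE 0.10), 0.41 (SE 0.12) and 0.30 (SE 0.09). All of these but Bcorl1 lost their call without affected female 3, control male 1 or control male 2, and with other single embryos left out (Phf1 in 4 of 8 such fits, Epop in 7, Lcorl in 6 and Dcaf7, L3mbtl2 and Usp7 in 5 each). Leaving out affected female 3, control male 1 or control male 2 gave 1 call, affected female 4 gave 2, control male 3 gave 4, affected female 1 gave 5, affected female 2 gave 6 and control male 4 gave 21. Calls over all tested genes moved too, from 361 to 5140 in these fits, beside 2940 with all embryos. In control males against control females edgeR called none of the 39, with 3 at an unadjusted p under 0.05. DESeq2 called none and limma voom with sample weights called 5.

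**Figure D4:**
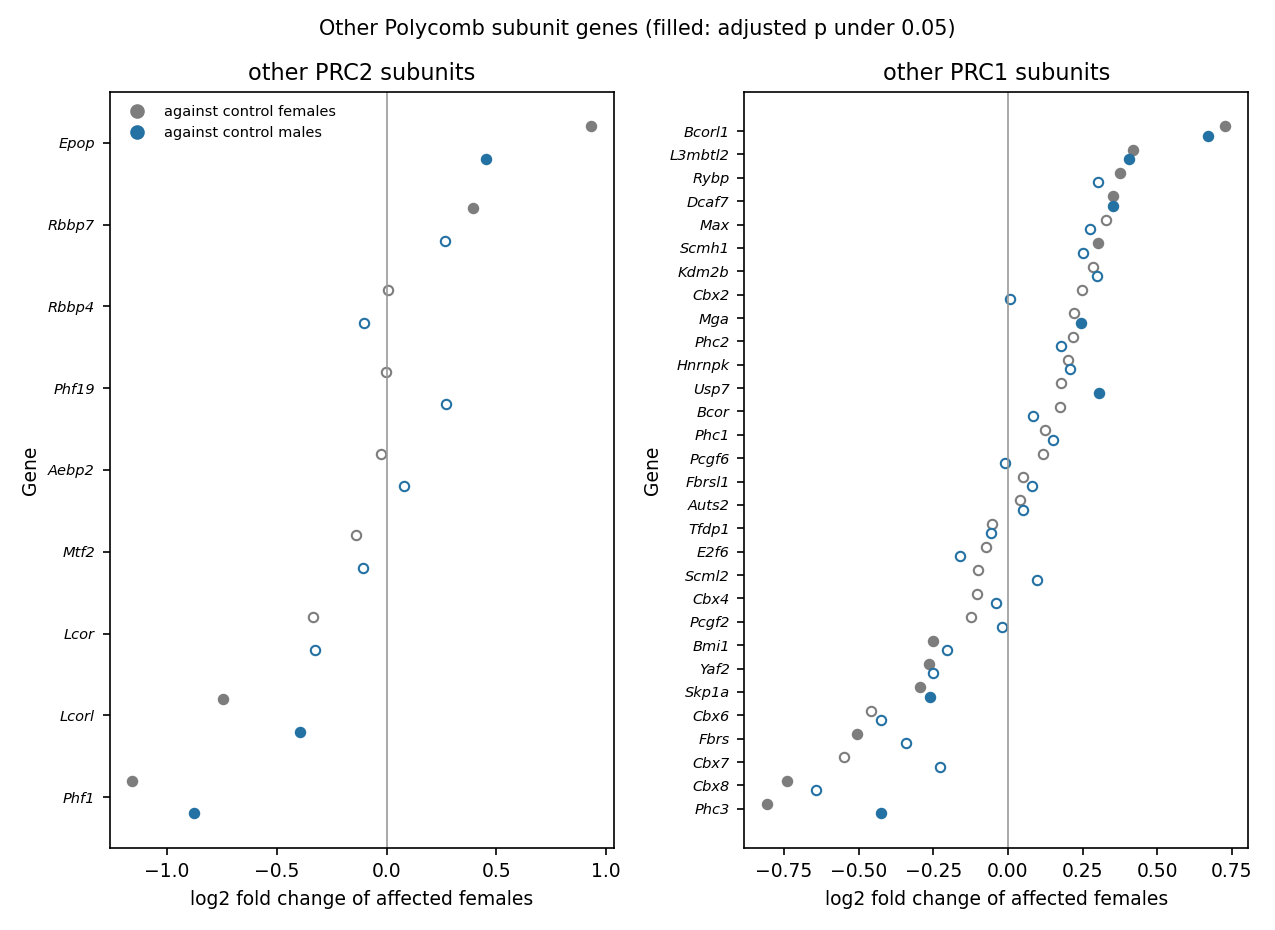
Log2 fold change of affected females for 9 other PRC2 and 30 other PRC1 genes, against control females (grey) and control males (blue), with filled points for an adjusted p under 0.05. Both comparisons use the same affected females, and the genes spread to both sides of 0, from Phf1 at -1.16 to Epop at 0.93 against control females.

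Of 13 genes for the removal of Polycomb marks, enzymes and their cofactors, 2 were higher and 2 lower against control females, beside 28.0% of all tested genes called. All 4 encode cofactors or partners, and the enzyme genes Kdm6a, Kdm6b, Bap1 and Usp16 were not called. Asxl1, a cofactor of the H2A deubiquitinase Bap1, rose by 0.38 (SE 0.09, adjusted p = 0.00887, edgeR), and its X-linked partners Hcfc1 and Ogt stood at 0.41 (SE 0.11) and -0.48 (SE 0.15). Mbd6 was at the threshold, at -0.50 (SE 0.18, adjusted p = 0.0497), and was called in only 1 of 7 fits that left out an embryo, the one without control female 1. Hcfc1 was not called without affected female 3, control female 2 or control female 3 (adjusted p = 0.0520 to 0.0703), nor Ogt without these or affected female 4 (0.0672 to 0.106). Against control males 4 of 13 were higher and 1 lower, beside 20.2% of all tested genes. Kdm6a, an X-linked demethylase that removes the PRC2 mark and is known to escape X inactivation, was at 139 to 152 CPM in affected females, 91.1 to 95.1 CPM in control males and 130.1 to 150.3 CPM in control females. It was higher in affected females than in control males by 0.63 (SE 0.07, adjusted p = 0.000436), and lower in control males than in control females by 0.61 (log2 fold change -0.61, SE 0.08, adjusted p = 0.000719). Asxl1, Hcfc1 and Mbd5 stood at 0.43 (SE 0.08), 0.47 (SE 0.10) and 0.33 (SE 0.10) against control males. The call of Hcfc1 was lost without affected female 3 (adjusted p = 0.0501), and that of Mbd5 without any 1 of affected females 1, 3 and 4 and control males 1, 2 and 3. Of 16 trithorax methyltransferase genes, whose products oppose Polycomb, 3 were higher and 4 lower against control females, beside the same 28.0%. The 4 lower were the methyltransferase genes Kmt2d at -0.50 (SE 0.11), Kmt2a at -0.35 (SE 0.11) and Kmt2b at -0.40 (SE 0.12) and the subunit gene Dpy30 at -0.60 (SE 0.13). Against control males, beside the same 20.2%, 2 were higher, Ncoa6 at 0.42 (SE 0.11) and Ash2l at 0.35 (SE 0.11), and 1 was lower, Dpy30 at -0.42 (SE 0.12). Without affected female 3 or 4, or control female 2 or 3, Kmt2a and Kmt2b were not called, and without affected female 3 or 4, or control male 1, 2 or 3, neither were Ncoa6, Ash2l and Dpy30 against control males. Kmt2b was also lost without affected female 1, and so was Ash2l.

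Posterior Hox genes and regulators of other lineages, which are classic Polycomb targets, were mostly but not all near the floor. The 16 posterior Hox genes had 13 counts in all 11 libraries together, 11 of the genes had none, and none passed the filter on low counts. The highest total in a library was 6 counts, in control female 1. Of 18 regulators of other lineages 13 did not pass the filter either, and none of these exceeded 1.40 CPM in a library. The 5 that passed included Tbx20, a heart and motor neuron factor, which was at 2.19, 2.16, 2.14 and 1.65 CPM in affected females, at 2.45, 5.07, 4.14 and 3.27 CPM in control males and at 3.36, 6.04 and 5.75 CPM in control females. It was lower in affected females than in control females (-1.32, SE 0.28, adjusted p = 0.00531, edgeR) and in control males (-0.86, SE 0.26, adjusted p = 0.0342). The call against control males was lost without any 1 of the affected females, or without control male 2 or 3 (adjusted p = 0.0543 to 0.103). Gata6, a regulator of endoderm and heart, lay the other way, at 1.20, 1.03, 1.68 and 0.969 CPM in affected females, 0.0940, 0.827, 0.690 and 0.818 CPM in control males and 0.498, 0.530 and 0.464 CPM in control females. Its affected females lay above all controls, on 10 to 18 counts against 1 to 9, but it was not called (1.28, SE 0.48, adjusted p = 0.0555 and 1.00, SE 0.41, adjusted p = 0.0895, edgeR). With limma voom and sample weights Gata6 was called in both comparisons (adjusted p = 0.0243 and 0.0216), and with only these groups in the fit it was called against control females (adjusted p = 0.0208). Gata6 passed the filter on low counts only through the affected females, since no control exceeded 0.827 CPM. With 1 embryo left out it was tested in only 4 of 7 fits against control females and 5 of 8 against control males. Its ranges and calls are therefore no support for a difference. The untested Cdx1, a caudal-type factor, had 7, 13, 15 and 10 counts in affected females, 0, 0, 7 and 1 in control males and 1, 2 and 0 in control females. Foxc1, a factor of head mesenchyme, was not low, at 20.1 to 39.98 CPM over all libraries. T, Sox17 and Foxc1 were not called in any comparison.

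The genes most like the 3 called members over the 11 libraries were listed by Pearson r of log2 CPM among 11724 genes with a mean log2 CPM of at least 2. For Ring1 they were Zfp397 (r = 0.99), Zfp101 (r = 0.98) and 9330151L19Rik (r = 0.98). For Pcgf1 they included Gigyf1 and 2900076A07Rik (each r = 0.98), and for Ezh1 they were Fhod1 (r = 0.99), Hdac7 (r = 0.97) and Suco (r = 0.97). These values describe 11 libraries that share group differences and library features. Among the members themselves Pcgf1 moved with Ezh1 (r = 0.90) and Ring1 (r = 0.81) and against Ezh2 (r = -0.91) and Rnf2 (r = -0.84).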

How the data were processed

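Polyadenylated RNA of 11 embryos was sequenced, 1 library per embryo. Per the labels' protocols, libraries were made with a TruSeq kit. The authors deposited whole-number counts of reads for each Entrez gene, beside its length. Per the submitters' processing notes, featureCounts and the build mm10 were used; for the aligner, strand setting and annotation: not given in the sources used here. Groups and replicate numbers came from the sample titles. The replicates are separate embryos, without litter or batch in the labels.

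Symbols, positions and promoter windows came from RefSeq's GRCm38.p6 table, which named 25275 of 27179 identifiers. Counts were fitted with edgeR 4.0.16 in R 4.3.3 (filterByExpr, TMM, 1 quasi-likelihood fit of all groups, Benjamini-Hochberg over 14542 genes). The fit was tested on simulated data. Alternatives used DESeq2 1.42.0 and limma 3.58.1. The ratio test added 0.5 counts. Intervals are 95%. Embryos were treated as unpaired. Within groups, no library was a duplicate of another (chi-square per degree of freedom of at least 2.73 for any 2 libraries of a group). Pairs from different groups were not checked in this way.

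The members and lists were chosen with earlier results of these data known. Beside the members, up to 4 genes per list and comparison are named, by smallest adjusted p among called genes with a mean log2 CPM of at least 2. Outside this rule, Tbx20 was named as the only call of its list, and Gata6, Cdx1, Foxc1 and Hes5 after their values were seen. 1 of the genes most like a member is not reported here.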

Additional observations from a re-analysis of the deposited data

Results flagged for a closer look

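Within the groups of 4 embryos, 24 sets of values of the members and ratios were searched for an embryo far from the others, which chance alone gives in about 1 of 20 sets. In affected female 2, Ring1 was at 15.6 CPM, while the other affected females lay at 14.1 to 14.3 CPM. In affected female 1, Pcgf1 was at 5.08 CPM (51 counts), while the other affected females lay at 3.73 to 3.80 CPM.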

How the results depend on the processing

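Counts of called genes moved more than the values of single genes. With limma voom and sample weights, 5 members were called against control females, 5 against control males and 1 between the control groups, and 25, 25 and 5 of the other subunits. The calls over all tested genes moved as well. Over the settings that did not leave out a single embryo, they ran from 2875 to 7639 against control females, beside 4073 in the main fit. Against control males they ran from 2868 to 6397, beside 2940, and between the controls from 19 to 1569, beside 21. Against control males, 1 member was called with no filter on low counts, with GC content and length trends removed, with only the 2 groups compared and with DESeq2. With 1 embryo left out at a time, 1 to 3 members were called against control females (1 without control female 2) and 0 to 3 against control males (0 without affected female 3 or 4 or control male 1 or 2), and 0 to 0 between the controls. For the other subunits these ranges were 5 to 15, 1 to 21 and 0 to 0, and for all tested genes 1663 to 4579, 361 to 5140 and 18 to 35. Leaving out both control female 1 and control male 4, which was chosen after seeing the data, gave 24 calls of other subunits against control males. The causes were not tested.

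The replicate numbers were tried as a replicate block. Correlations of same-numbered embryos ran from -0.183 to 0.258 and those of others from -0.373 to 0.341. The same-numbered embryos were thus no more alike than others, which cannot show whether any embryos share a litter or batch. Under the block 9 other subunits were called against control females in place of 15 and 14 against control males in place of 10, and the members called were 2, 2 and 0. Ezh1 was then at -0.35 against control females (adjusted p = 0.0746, edgeR).

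Directions turned for members near 0 that were not called. Eed against control females was at 0.028 with limma voom, 0.051 without both libraries, and -0.082 to 0.048 (without control female 1) with 1 embryo left out. Between the controls, Ring1 was at 0.027 under the block and at -0.33 to 0.165 with 1 embryo left out, Eed at -0.03 with GC and length trends removed and at -0.024 to 0.10, Suz12 at -0.006 with limma voom, Pcgf5 at 0.15 with limma voom and at -0.16 to 0.086, and Jarid2 at -0.081 to 0.001. The log2 ratio of Ring1 to Rnf2 between the controls ran from -0.47 to 0.14, above 0 without control male 4 or control female 2. Of the low genes, Pcgf1 rested on the fewest counts. The 3 to 4 embryos a group limit the precision to the printed intervals.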
